A study of Mus musculus with 568 samples.

Results

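PRC1.6 is a variant Polycomb repressive complex, built around a RING finger pair that places a single ubiquitin on histone H2A. What sets it apart from other PRC1 complexes is the PCGF6 subunit together with DNA-binding partners: MGA and MAX, a heterodimer that reads E-box letters, and E2F6, which reads E2F sites with its partner DP1 or DP2. In mouse embryonic stem cells the complex is known for keeping germ line and meiotic genes silent, and many of those genes carry E-box or E2F letters at their starts.

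The mRNA of 7 genes that encode its defining parts was followed here: *Pcgf6*, *Mga*, *Max*, *E2f6*, *L3mbtl2*, *Rnf2* and *Ring1*. They were chosen by name, with earlier results of these data known. All 7 were found among the 16335 genes of the bulk table and again among the 15718 genes of the single-cell table, and none is X-linked. The cells were XRep cells, a hybrid female mouse line (129S1/SvImJ by CAST/EiJ). In every group they carried a GFP reporter and a *Tsix* truncation on the *musculus* X, which makes that X the one to be silenced, a tdTomato reporter on the *castaneus* X, rtTA from the *Rosa26* locus and doxycycline-responsive *Prdm1*, *Prdm14* and *Tfap2c* transgenes. Bulk RNA came from 4 groups with 4 libraries each: unsorted ESCs, unsorted EpiLCs (epiblast-like cells, 48 h and a further 48 h after a split), and PGCLCs (primordial germ cell-like cells) after 5 days with doxycycline, sorted as SSEA1+/CD61+ cells with the GFP reporter on (XGFP+) or silenced (XGFP−). The transgenes were thus induced in the PGCLC groups, so that induction, sorting and cell stage cannot be told apart in a comparison of PGCLCs with EpiLCs or ESCs. Single cells came from rOvaries, in which sorted PGCLCs were cultured for 6 days with E13.5 female gonadal somatic cells. XGFPhigh, XGFPintermediate and XGFPlow germ cells were sorted from rOvaries made with XGFP− PGCLCs, and XGFP+ constitutive cells from rOvaries made with XGFP+ PGCLCs.

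The bulk values are read counts divided by a size factor per library, called normalized counts below, from 29778299 to 46533858 reads per library. Bulk groups were compared with limma on log2(normalized count + 1), a scale that understates changes of low genes, and a gene was called at a false discovery rate (FDR) below 0.001 over 16281 genes. Errors of levels are SDs over 4 libraries and errors of log2 fold changes are standard errors. Nothing in the labels says which libraries came from separate cultures, and the study's text speaks of 2 clones with technical replicates, so these p-values may rest on technical spread and be too small. In bulk RNA, fewer cells of a type and less RNA per cell cannot be told apart. The marker sums went with the labels: naive pluripotency markers (5 genes) summed to between 126113 and 142224 normalized counts in ESCs and to between 2590 and 6602 in EpiLCs, formative epiblast markers (4 genes) to between 51893 and 60664 in EpiLCs against at most 4115 in any library of another group, and primordial germ cell markers (6 genes, 3 of them also transgenes) to between 24237 and 27004 in PGCLCs against at most 9104 elsewhere. Gonadal somatic markers (4 of 7 listed) summed to between 2708 and 5248 in EpiLCs and to at most 159 in any other library. Their part in the differences between EpiLCs and other groups was not tested. The PGCLC groups also stood apart: naive pluripotency markers summed to between 43112 and 49805 in XGFP+ and to between 24041 and 30616 in XGFP− PGCLCs, and the later germ cell markers *Dazl* and *Ddx4* to between 3304 and 8587 against 315 to 1104. Their part in the differences between the PGCLC groups for the PRC1.6 genes and their targets was not tested.

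The alternative catalytic subunits stood at unequal levels. RNF2 and RING1 are alternative ubiquitin ligases of PRC1, and every PRC1 complex holds one of them. Per kb of exon, *Rnf2* (ENSMUSG00000026484, mm10 1:151458004-151500955) was 21.1 ± 2.99 times as high as *Ring1* (ENSMUSG00000024325, 17:34020792-34024680) in ESCs, 14.3 ± 1.45 times in EpiLCs, 10.6 ± 2.35 times in XGFP+ PGCLCs and 6.01 ± 1.02 times in XGFP− PGCLCs (mean ± SD, n = 4). *Ring1* made up 4.59% ± 0.655 of the summed level of the pair per kb in ESCs and 14.5% ± 1.88 in XGFP− PGCLCs. The narrowing came with a higher *Ring1* in each group of that order, although the PGCLC groups were sorted on the same day and are no successive stages.

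*Ring1* stood at 139.2, 170.0, 169 and 162 normalized counts in ESC replicates 1 to 4, and at 232, 219.5, 217 and 245 in EpiLCs. In XGFP+ PGCLCs it reached 419.9, 332, 434 and 352 normalized counts, and in XGFP− PGCLCs 739, 704, 687 and 629.8. The libraries of the 4 groups did not overlap. *Ring1* rose from ESCs to EpiLCs by a log2 fold change of 0.51 ± 0.10 (FDR = 0.000225), from EpiLCs to XGFP+ PGCLCs by 0.74 ± 0.10 (FDR = 2.9e-06) and from EpiLCs to XGFP− PGCLCs by 1.59 ± 0.10 (FDR = 6.88e-11). It was 0.85 ± 0.10 higher on the log2 scale in XGFP− than in XGFP+ PGCLCs (FDR = 2.27e-06), and 2.10 ± 0.10 higher in XGFP− PGCLCs than in ESCs (FDR = 1.34e-12), the largest difference of any of the 7 genes in any pair of groups. The call between EpiLCs and ESCs was lost without EpiLC replicate 4 (FDR = 0.00106) or ESC replicate 1 (FDR = 0.00123), with only the 2 groups in the fit (0.00207) and after quantile normalization (0.0043).

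*Rnf2* moved much less. It stood at 4148, 4347, 3734 and 4855 normalized counts in ESCs, at 3609.5, 4126, 4279 and 4632 in EpiLCs, at 4475, 5052, 4862 and 5898 in XGFP+ PGCLCs and at 4916, 5057, 4937 and 6020.3 in XGFP− PGCLCs. Replicate 4 was the highest library in every group, and the ESC and EpiLC libraries overlapped. No pair of groups passed the main test. The difference was 0.33 ± 0.10 between XGFP− PGCLCs and EpiLCs (FDR = 0.00435) and 0.28 ± 0.10 between XGFP+ PGCLCs and EpiLCs (FDR = 0.0126). Between the PGCLC groups it was 0.05 ± 0.10 (FDR = 0.718). With a block for replicate number added to the fit, both PGCLC groups passed against EpiLCs and against ESCs (limma FDR between 3.36e-05 and 0.00067). Whether the numbers pair these libraries is not settled. *Rnf2* overlaps *Trmt1l* on the opposite strand and the gene model *Gm36527* on its own strand. The libraries kept strand, but whether the counting used it is not given in the sources used here.

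*Pcgf6* (ENSMUSG00000025050, 19:47033617-47050906), whose protein defines the complex, was lower in PGCLCs. Its values were 3343, 3515, 3348 and 3671 normalized counts in ESCs and 3797, 3213, 3479 and 3242 in EpiLCs, which overlapped. In PGCLCs they were 2756, 2705, 2748 and 2796 with XGFP on and 2695, 2755, 2594 and 2825 with XGFP silenced, all below any ESC or EpiLC library. From EpiLCs, *Pcgf6* fell by 0.32 on the log2 scale in XGFP+ PGCLCs (SE 0.06, FDR = 4.96e-05) and by 0.33 in XGFP− PGCLCs (SE 0.06, FDR = 2.36e-05). Between EpiLCs and ESCs the difference was −0.02 ± 0.06 (FDR = 0.801), and between the PGCLC groups −0.02 ± 0.06 (FDR = 0.811).

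The DNA-binding heterodimer partners took different courses. *Mga* (ENSMUSG00000033943, 2:119897228-119969581) encodes a large protein with a T-box and a helix-loop-helix domain that holds the complex together. It stood at 23722, 24861, 23414 and 23237 normalized counts in ESCs, then at 15547, 16173, 15282 and 13836 in EpiLCs, where all libraries were lower than any other. It stood at 19817, 21583, 19468 and 23601 in XGFP+ PGCLCs and at 19146, 19958, 21725 and 20908 in XGFP− PGCLCs. *Mga* fell by 0.65 on the log2 scale from ESCs to EpiLCs (SE 0.06, FDR = 4.59e-08) and rose from EpiLCs by 0.47 ± 0.06 in XGFP+ PGCLCs (FDR = 2.29e-06) and by 0.43 ± 0.06 in XGFP− PGCLCs (FDR = 6.78e-06). The PGCLC groups overlapped and differed by −0.04 ± 0.06 (FDR = 0.594), and neither passed the test against ESCs (FDR = 0.0199 for XGFP+ and 0.00428 for XGFP− PGCLCs).

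*Max* (ENSMUSG00000059436, 12:76937269-76962201), the common partner of MGA, MYC and the MXD repressors, stood at 1853, 1751, 1882 and 2102 normalized counts in ESCs and at 1735, 1709.8, 1685 and 1630.3 in EpiLCs. It stood at 3478, 3487, 3705 and 3402 in XGFP+ PGCLCs and at 4261, 4131, 4301 and 4206 in XGFP− PGCLCs, with no overlap between any of the 4 groups. *Max* rose from EpiLCs by 1.06 ± 0.05 in XGFP+ PGCLCs (FDR = 3.96e-12) and by 1.32 ± 0.05 in XGFP− PGCLCs (FDR = 1.35e-13), while the difference between EpiLCs and ESCs was −0.16 ± 0.05 (FDR = 0.0125). Per kb of exon, *Mga* was the higher of both partners in ESCs (1552 ± 47.6 against 527.3 ± 41.05) and still in XGFP− PGCLCs (1332 ± 73.1 against 1174 ± 20.46). *Max* shares its strand with the overlapping gene model *Gm47218*. Between XGFP− and XGFP+ PGCLCs the difference of 0.26 ± 0.05 was called (FDR = 0.000568), but the call was lost without any 1 of XGFP+ replicates 1, 2 and 4 or XGFP− replicates 1 to 4 (FDR between 0.00149 and 0.00242).

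*E2f6* (ENSMUSG00000057469, 12:16810963-16839742), a member of the E2F family that represses and does not activate, peaked in EpiLCs. Its values were 1412, 1377, 1224 and 1390.3 normalized counts in ESCs and 1963, 1805, 1774 and 1912 in EpiLCs. In XGFP+ PGCLCs they were 1037, 969, 1056 and 913, and in XGFP− PGCLCs 1227, 1269, 1245 and 1265. The EpiLC libraries were the highest and the XGFP+ PGCLC libraries the lowest, while ESCs overlapped with XGFP− PGCLCs (difference −0.11 ± 0.06, FDR = 0.124). *E2f6* rose from ESCs to EpiLCs by 0.46 ± 0.06 (FDR = 2.73e-06) and fell from there by 0.91 in XGFP+ PGCLCs (SE 0.06, FDR = 2.39e-10) and by 0.57 in XGFP− PGCLCs (SE 0.06, FDR = 1.16e-07). XGFP− PGCLCs held more of it than XGFP+ PGCLCs (log2 fold change 0.33 ± 0.06, FDR = 0.000248), a call that was lost without XGFP+ replicate 2 (FDR = 0.00116), XGFP+ replicate 4 (0.00123) or XGFP− replicate 2 (0.00117).

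*L3mbtl2* (ENSMUSG00000022394, 15:81663889-81688315) encodes a histone-binding protein with MBT repeats. It stood at 4682, 4943, 5723 and 6147 normalized counts in ESCs, at 7284, 6387, 6211 and 5360.1 in EpiLCs, at 6775, 6113, 6212 and 5609 in XGFP+ PGCLCs and at 4209, 4011, 4112 and 3877 in XGFP− PGCLCs. XGFP− PGCLCs lay below all other libraries, which overlapped among each other. *L3mbtl2* fell by 0.63 on the log2 scale from EpiLCs to XGFP− PGCLCs (SE 0.09, FDR = 3.69e-06) and was lower there than in XGFP+ PGCLCs (log2 fold change −0.61 ± 0.09, FDR = 2.38e-05). Between XGFP+ PGCLCs and EpiLCs the difference was −0.03 ± 0.09 (FDR = 0.805). The call against ESCs (−0.40 ± 0.09, FDR = 0.000566) was lost without any 1 of the XGFP− libraries or ESC replicates 3 and 4 (FDR between 0.0011 and 0.00311), and after quantile normalization (0.00113). *Chadl* and the pseudogene *Gm18284* overlap it on the opposite strand.

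**Figure D1:**
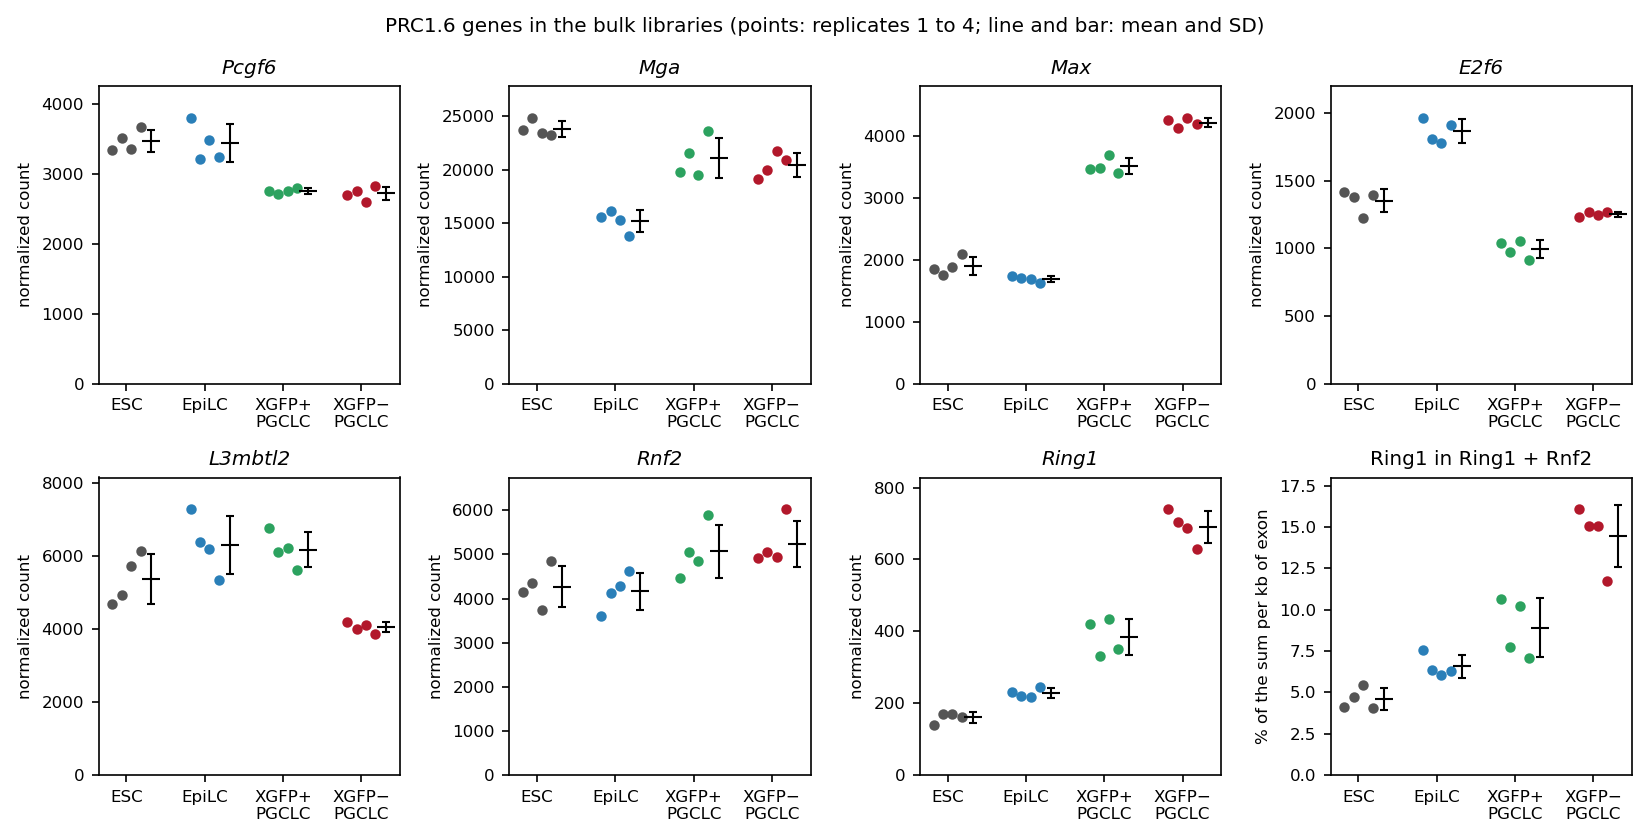
Normalized counts of the 7 PRC1.6 genes in each bulk library (points, replicates 1 to 4 from left to right) with mean and SD, and, in the last panel, *Ring1* as a percent of the summed *Ring1* and *Rnf2* level per kb of exon. *Ring1* climbs from 139.2 in its lowest ESC library to 739 in its highest XGFP− PGCLC library, while *L3mbtl2* lies between 3877 and 4209 in XGFP− PGCLCs, below the other groups.

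Read by comparison, 3 of the 7 genes were called between EpiLCs and ESCs, 2 higher (*E2f6*, *Ring1*) and 1 lower (*Mga*), where 24.9% of all genes tested were called higher and 22.9% lower. Between XGFP− PGCLCs and EpiLCs 3 were higher (*Ring1*, *Max*, *Mga*) and 3 lower (*L3mbtl2*, *E2f6*, *Pcgf6*), against 29.9% and 31.9% of all genes. Between XGFP+ PGCLCs and EpiLCs 3 were higher (*Max*, *Ring1*, *Mga*) and 2 lower (*E2f6*, *Pcgf6*), against 27.8% and 29.5%. These comparisons share the EpiLC libraries. Between XGFP− and XGFP+ PGCLCs 3 were higher (*Ring1*, *E2f6*, *Max*) and 1 lower (*L3mbtl2*), against 11.3% and 12.5%. That count of 4 dropped to 2 without XGFP+ replicate 2, XGFP+ replicate 4 or XGFP− replicate 2. Against ESCs, 4 were called in XGFP+ PGCLCs (*Ring1* and *Max* higher, *E2f6* and *Pcgf6* lower), where 49.9% of all genes were called in either direction. Likewise 4 were called in XGFP− PGCLCs (*Ring1* and *Max* higher, *L3mbtl2* and *Pcgf6* lower), against 59.4%. The median log2 fold change of the 7 genes was 0.33 between XGFP− PGCLCs and EpiLCs and 0.05 between the PGCLC groups, beside −0.03 and 0.01 over all genes tested. The genes of the complex thus did not move in 1 direction in any comparison. With an added limit of 1 on the size of the log2 fold change, 2 calls (*Ring1*, *Max*) were left from EpiLCs to XGFP− PGCLCs. From EpiLCs to XGFP+ PGCLCs 1 was left (*Max*), and none from ESCs to EpiLCs or between the PGCLC groups. At that limit, 2618 of all 16281 genes were called higher and 3067 lower from EpiLCs to XGFP− PGCLCs. From EpiLCs to XGFP+ PGCLCs these counts were 2361 and 2586, and from ESCs to EpiLCs 2381 and 1820. Between the PGCLC groups 662 genes were higher and 1159 lower in XGFP− PGCLCs.

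**Figure D2:**
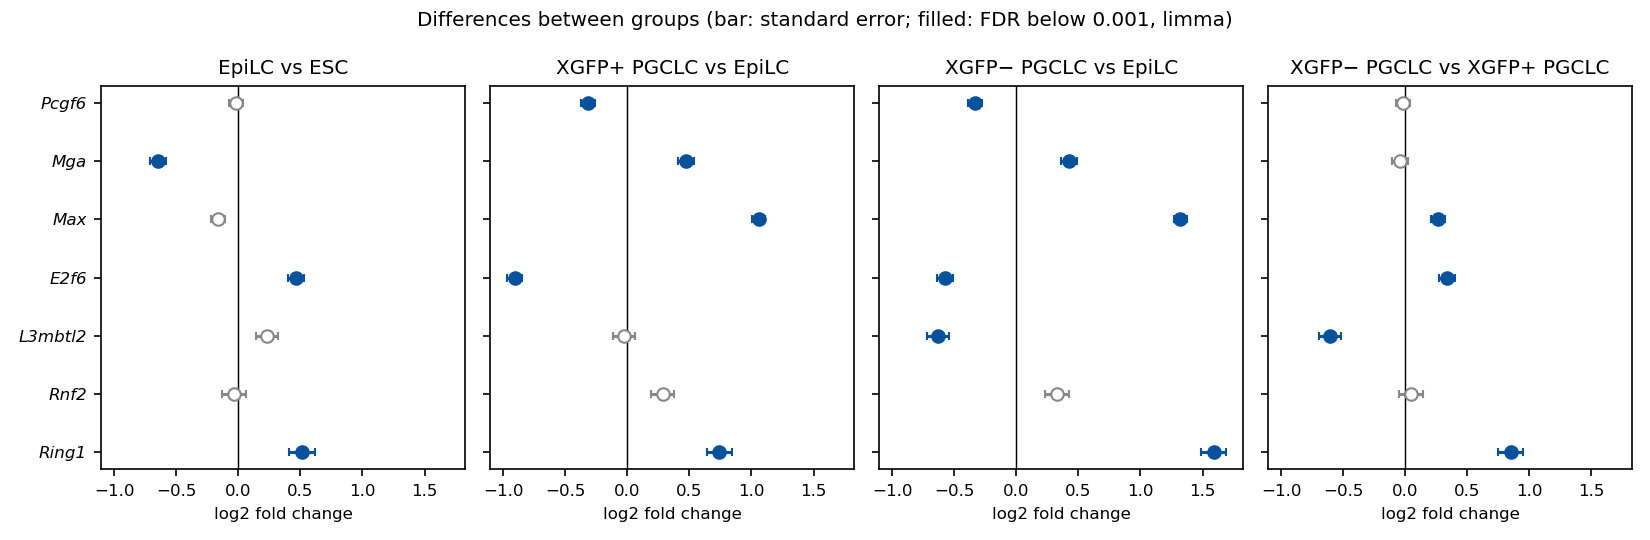
Log2 fold changes of the 7 genes between bulk groups (point and bar, estimate and standard error from limma, 4 libraries per group). Filled points passed an FDR of 0.001. *Max* and *Ring1* lie to the right of 0 in both PGCLC groups against EpiLCs, *E2f6* and *Pcgf6* to the left, and *L3mbtl2* is filled for XGFP− but open for XGFP+ PGCLCs.

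Across the 16 libraries the members fell into opposite patterns. *Max* and *Ring1* correlated at r = 0.91 (Pearson, log2 scale), and *Max* and *Pcgf6* at r = −0.91. These values describe 4 groups more than 16 independent points. Over 11701 genes with a mean normalized count above 100, the patterns most like *Ring1* were those of *Wdr90* (r = 0.991), *Arhgap21* (0.989) and *Fancf* (0.987), and the most like *Max* were *Hp1bp3* (0.994), *Pnkd* (0.994) and *Fbxo31* (0.994). *Pcgf6* was most like *Hnrnpf* (0.962), *Gstp1* (0.959) and *Dpy30* (0.957), and *Mga* most like *Tmem81* (0.972), *Prr14l* (0.970) and *Atp2b4* (0.963). *E2f6* was most like *Ly6e* (0.982), *Gnas* (0.981) and *Armcx2* (0.979). For *L3mbtl2* these included *Dnmt3l* (0.942) and *Enox1* (0.928), and for *Rnf2* they were *Lims1* (0.950), *Vps13a* (0.923) and *Orc4* (0.921). *Dnmt3l* encodes the cofactor of the de novo DNA methyltransferases.

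Of 8 further subunits of the complex (*Cbx3*, *Rybp*, *Yaf2*, *Wdr5*, *Hdac1*, *Hdac2*, *Tfdp1*, *Tfdp2*), 6 were lower and 2 higher in XGFP− PGCLCs than in EpiLCs, with a median log2 fold change of −0.53, beside 31.9% lower, 29.9% higher and a median of −0.03 over all genes. RYBP and YAF2 are alternative subunits that stimulate the ligase. *Yaf2* stood at 501 ± 89.7 normalized counts in EpiLCs against 208 ± 15.7 in ESCs, and PGCLCs had 136.1 ± 11.7 (XGFP+) and 75.8 ± 14.8 (XGFP−), with a log2 fold change of −2.71 from EpiLCs to XGFP− PGCLCs (FDR = 5.01e-12). *Rybp* went from 2187 ± 123.3 in EpiLCs to 979 ± 99.1 in XGFP− PGCLCs (log2 fold change −1.16 ± 0.08, FDR = 4.11e-10). These were the only 2 of the 8 called between the PGCLC groups, both lower in XGFP− PGCLCs (*Rybp* −0.61 ± 0.08, FDR = 1.29e-05, and *Yaf2* −0.85 ± 0.15, FDR = 9.93e-05). Over all genes, 12.5% were called lower and 11.3% higher in XGFP− than in XGFP+ PGCLCs.

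The DP proteins that pair with E2F6 went apart. *Tfdp1* fell by 0.71 on the log2 scale from EpiLCs to XGFP− PGCLCs (12132 ± 516 to 7391 ± 115.1, FDR = 1.6e-10), whereas *Tfdp2* rose by 0.86 ± 0.08 (2628 to 4732, FDR = 5.69e-09). *Wdr5*, a scaffold shared with histone methyltransferases, dropped from 19119 ± 1940 in ESCs to 7270.2 ± 243 in EpiLCs (log2 fold change −1.39 ± 0.06, FDR = 4.32e-13). The deacetylase genes *Hdac1* and *Hdac2* stood at 2371 ± 37.9 and 6793 ± 681 in XGFP− PGCLCs, and *Hdac1* fell (−0.66 ± 0.05, FDR = 1.57e-09) where *Hdac2* rose (0.33 ± 0.06, FDR = 0.000137) against EpiLCs. *Cbx3*, which encodes HP1 gamma, a reader of methylated histone H3, fell there as well (−0.40 ± 0.06, FDR = 9.4e-06).

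Outside the complex, 7 of 18 listed subunits of other PRC1 complexes were higher and 3 lower in XGFP− PGCLCs than in EpiLCs, with a median log2 fold change of 0.19, beside the same 29.9% higher, 31.9% lower and −0.03 over all genes. The largest rises were those of *Scmh1* (206 to 879 normalized counts, log2 fold change 2.09, FDR = 1.94e-12) and *Pcgf5* (373 to 1461, 1.97, FDR = 1.87e-12), and the largest fall that of *Bcor* (3824 to 1137, −1.75, FDR = 4.05e-12). *Pcgf5* encodes a sister of PCGF6 that defines another variant complex, and *Bcor* a subunit of the PCGF1 complex. Between the PGCLC groups 2 of these 18 were called, *Bcor* lower (−0.65, FDR = 1.44e-05) and *Cbx2* higher (0.40, FDR = 0.000578) in XGFP− PGCLCs, where 12.5% of all genes were lower and 11.3% higher. That count ranged from 1 to 3 with 1 library left out, and was 1 without XGFP+ replicate 1 or 2 or XGFP− replicate 2, 3 or 4. Of the 8 other partners of MAX, 2 were higher and 4 lower in XGFP− PGCLCs than in EpiLCs while *Max* rose, with a median log2 fold change of −0.55. *Mxd4* fell most (459 to 25.3 normalized counts, log2 fold change −4.14, FDR = 7.39e-12), followed by *Myc* (278 to 26.99, −3.32, FDR = 1.59e-09), and *Mxi1* (348 to 577, 0.74, FDR = 2.57e-06) and *Mnt* (567 to 916, 0.70, FDR = 2.39e-05) rose.

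Germ line genes known as targets of PRC1.6, MGA, MAX or E2F6 give the other side of the comparison. The letters CACGTG, the E-box that the MGA and MAX heterodimer reads and which is its own reverse complement, were searched in windows of 250 bases before and 50 bases after gene starts (RefSeq, GRCm38.p6). They stood in the windows of 11 of 21 listed targets that have one (52.4%), and in 8.09% of all 27025 genes. The letters GCGGGA or their reverse complement TCCCGC, the core that E2F proteins read, stood in 12 of 21 (57.1%) against 22.1% of all genes, and both motifs in 7 of 21 (33.3%) against 2.65%. These genes are listed as targets in part because of such sites, so the shares describe the list and are no test. The 8 targets with an E-box in the last 100 bases before the start are shown because they carry the site that the *Mga* and *Max* products can read, 5′ to 3′ on the strand of the gene with the E-box in capitals.
*Ddx4*, chr13:112652311-112652410, minus strand: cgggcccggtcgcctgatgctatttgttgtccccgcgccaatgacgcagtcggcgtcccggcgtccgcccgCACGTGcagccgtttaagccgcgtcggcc
*Slc25a31*, chr3:40708771-40708870, plus strand: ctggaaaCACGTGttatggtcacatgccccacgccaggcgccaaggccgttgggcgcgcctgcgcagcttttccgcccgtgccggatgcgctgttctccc
*Tdrd1*, chr19:56826109-56826208, plus strand: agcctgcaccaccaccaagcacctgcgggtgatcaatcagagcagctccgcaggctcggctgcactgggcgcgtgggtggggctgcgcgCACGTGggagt
*Taf7l*, chrX:134476491-134476590, minus strand: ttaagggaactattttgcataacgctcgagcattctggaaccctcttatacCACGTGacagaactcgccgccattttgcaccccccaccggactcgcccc
*Sycp1*, chr3:102936101-102936200, minus strand: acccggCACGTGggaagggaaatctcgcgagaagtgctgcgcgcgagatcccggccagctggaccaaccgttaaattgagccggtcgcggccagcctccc
*Sycp3*, chr10:88459487-88459586, plus strand: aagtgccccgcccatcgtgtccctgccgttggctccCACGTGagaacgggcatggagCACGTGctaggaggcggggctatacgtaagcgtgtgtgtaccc
*Stk31*, chr6:49395439-49395538, plus strand: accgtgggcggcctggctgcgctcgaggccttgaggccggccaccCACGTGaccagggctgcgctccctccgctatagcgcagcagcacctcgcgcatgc
*Hormad1*, chr3:95559577-95559676, plus strand: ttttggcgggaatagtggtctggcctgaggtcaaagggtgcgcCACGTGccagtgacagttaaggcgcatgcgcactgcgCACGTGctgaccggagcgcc

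*Sycp3* and *Hormad1*, both of which encode proteins of meiotic chromosome axes, hold 2 E-boxes each in these stretches. Among the 7 PRC1.6 genes, the E-box letters stood only in the window of *Max*, across its start, and the E2F letters in those of *E2f6* and *Rnf2*. The 30 bases around the *Max* start are shown because they hold the letters that its own product can read.
*Max*, chr12:76962234-76962263, minus strand: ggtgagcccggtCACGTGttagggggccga
A match describes these letters only and is no evidence that a factor is bound there.

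Of the 22 listed target genes, 20 were in the bulk table. The list was chosen with earlier results of these data known, so its counts here and below describe it and are no test. In EpiLCs 12 of the 20 were higher than in ESCs and 2 lower, with a median log2 fold change of 1.50. Over all genes 24.9% were higher and 22.9% lower, with a median of 0.01. The largest rises were those of *Tdrd1*, of the piRNA pathway (8.82 ± 2.98 to 396 ± 24.3 normalized counts, log2 fold change 5.38, FDR = 1.85e-13), and *Mael*, of the same pathway (49.02 ± 11.1 to 469 ± 135.2, 3.21, FDR = 1.75e-09). *Hsf2bp* (3081 to 1502, −1.06, FDR = 5.96e-06) and *Stk31* (414 to 227, −0.85, FDR = 0.000165) fell. In XGFP− PGCLCs, 13 of the 20 were lower than in EpiLCs and 3 higher (median −2.26), beside 31.9% lower and 29.9% higher over all genes. In XGFP+ PGCLCs 6 were lower and 5 higher (median −0.18), beside 29.5% and 27.8%. *Meioc*, needed for meiotic entry to be completed, fell from 1321 ± 88.4 in EpiLCs to 36.1 ± 6.43 in XGFP− PGCLCs (log2 fold change −5.17, FDR = 6.58e-13) and to 109.9 ± 32.4 in XGFP+ PGCLCs (−3.63, FDR = 1.25e-10). *Hormad1* fell from 1173 ± 447 to 33.6 ± 18.04 in XGFP− PGCLCs (−5.14, FDR = 4.86e-11) and stood at 779.6 ± 166 in XGFP+ PGCLCs (FDR = 0.156).

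Compared directly, 14 of the 20 target genes were lower in XGFP− than in XGFP+ PGCLCs and 1 higher, with a median log2 fold change of −1.75, beside 12.5% lower, 11.3% higher and a median of 0.01 over all genes. The higher one, named after its values were seen, was *Spo11*, the nuclease that makes meiotic DNA breaks (111.5 ± 24.3 against 29.6 ± 7.36 normalized counts, log2 fold change 1.89, FDR = 0.000475). *Tuba3b*, a testis tubulin, showed the largest difference (15.0 ± 8.64 against 377 ± 72.2, log2 fold change −4.67, FDR = 9.55e-10), next to *Hormad1* (−4.63, FDR = 3.36e-09). Among those that rose from EpiLCs, *Dazl*, the germ cell RNA-binding protein, reached 4792 ± 2364 in XGFP+ PGCLCs (log2 fold change 4.21, FDR = 3.68e-08) against 348 ± 312 in XGFP− PGCLCs. *Stk31* rose in both (2.97, FDR = 1.27e-11, and 1.53, FDR = 9.9e-08), and *Tdrkh* rose by 2.31 in XGFP− PGCLCs (FDR = 3.27e-08). XGFP− PGCLCs had the highest *Ring1* and *Max* and the lowest *L3mbtl2*, *Rybp* and *Yaf2* of the 4 groups. These orders are set side by side over 4 groups, and their relation was not tested.

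**Figure D3:**
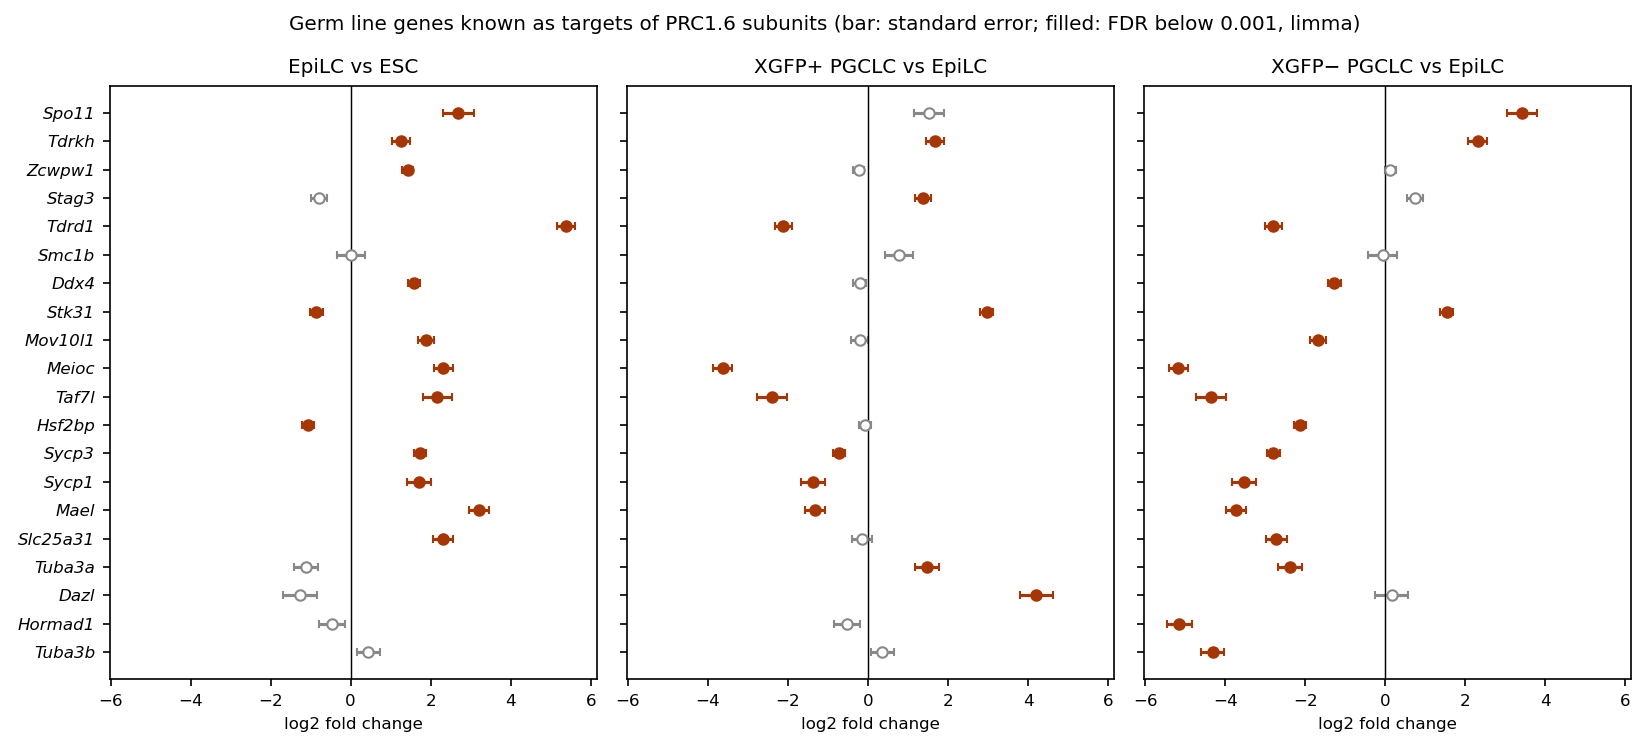
Log2 fold changes of the 20 germ line target genes in the bulk table (point and bar, estimate and standard error from limma, 4 libraries per group), ordered by their difference between XGFP− and XGFP+ PGCLCs. Filled points passed an FDR of 0.001. Of the filled points, 12 of 14 lie to the right of 0 from ESCs to EpiLCs, and 13 of 16 to the left from EpiLCs to XGFP− PGCLCs.

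In rOvaries the same genes were read in 401 single germ cells, of 518 wells, with at least 4000 genes, at least 10000 reads, at most 5% mitochondrial reads and a natural-log *Dazl* level above 1. They were 76 XGFP+ constitutive cells (80.9% of their wells), 91 XGFPlow cells (66.9%), and 81.9% of the XGFPhigh and 80.6% of the XGFPintermediate wells. Median depth was 358390 reads in constitutive cells and 635684 to 644883 in the others. The cells were sequenced on 2 lanes. All constitutive cells used were on lane 2, whereas only 14 XGFPhigh, 13 XGFPintermediate and 12 XGFPlow cells were, the rest of these being on lane 3. Values summed over both lanes therefore set constitutive cells against cells mostly of another lane, and shares of cells were not split by lane. Each sorted population counts as 1 sample, so no test was run. Levels are CPM, reads of a gene scaled to a common total of reads, summed over the cells of a population, with an exact 95% Poisson interval that covers counting error only, and the reads carry no molecular identifiers. None of the 10 empty wells held a read of the 7 genes. Of the defining somatic markers of the gonad, the summed level was at most 7.56 CPM in any population, and mesenchyme, endothelium and blood markers summed to at most 8.98 CPM. Single cells reached 164 CPM of gonadal markers (XGFPintermediate) and 603 CPM of mesenchyme markers (XGFPlow), so not every cell was free of such RNA. Of the 2 blood markers only 1 was among the genes counted.

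All 7 genes were read in each population. *Rnf2* was the highest in CPM, with 188.5 in constitutive, 159 in XGFPhigh, 188 in XGFPintermediate and 193 in XGFPlow cells, against 102 in 24 ESCs sequenced on another flow cell. *Ring1* was again the lowest. It stood at 6.67 CPM (5.74 to 7.71) in constitutive cells, 3.36 (2.96 to 3.79) in XGFPhigh, 7.89 (7.27 to 8.55) in XGFPintermediate, 9.19 (8.45 to 9.98) in XGFPlow cells and 1.23 (0.841 to 1.74) in ESCs. XGFPhigh cells were the lowest of the rOvary populations, and the counting intervals of the other rOvary populations lay above theirs. In the constitutive population a single cell held 16.3% of all *Ring1* reads. A read of *Ring1* was found in 59.2%, 46.6%, 56.9% and 61.5% of constitutive, XGFPhigh, XGFPintermediate and XGFPlow cells, and with each cell thinned to 100000 reads in 33.3%, 22.4%, 35.2% and 42.2%.

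*Ring1* was the only member past 2-fold between XGFPhigh and XGFPlow cells, at a log2 ratio of −1.45, where 22.7% of 12540 genes with a mean above 1 CPM were past 2-fold. It held within the lane with few cells of these populations (−1.91, 14 against 12 cells) and within the other lane (−1.39, with 79 XGFPlow cells). Between XGFPintermediate and XGFPlow cells none of the 7 was past 2-fold, against 10.3% of all genes, and likewise between XGFPhigh and constitutive cells, against 8.52%. In the second of these pairs *Ring1* sat at the limit (log2 ratio −0.99). On lane 2 alone, where 12 to 14 cells of each XGFP− derived population were left, 3 members were past 2-fold in each of these pairs. The share of all genes past 2-fold on lane 2 was not counted, so these 3 cannot be set beside it.

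*E2f6* was read in fewer cells of some populations than of others. It stood at 44.5 CPM (42.0 to 47.01) in constitutive and 44.8 (43.4 to 46.4) in XGFPhigh cells, at 22.3 (21.3 to 23.4) in XGFPintermediate and at 33.7 (32.2 to 35.2) in XGFPlow cells, where a single cell held 11.6% of all *E2f6* reads. The median cell had 41.7 CPM in the constitutive, 31.9 in the XGFPhigh, 1.965 in the XGFPintermediate and 4.30 in the XGFPlow population. A read was found in 92.1%, 81.4%, 52.6% and 53.8% of cells in that order (exact 95% binomial intervals 83.6 to 97.05, 73.1 to 87.9, 43.1 to 61.9 and 43.1 to 64.4). These intervals cover the draw of cells within a sorted population only, and are no test between populations or lanes. After thinning to 100000 reads these shares were 87.5%, 74.4%, 43.8% and 47.9%. The log2 ratio of summed CPM was 0.41 between XGFPhigh and XGFPlow cells and −0.59 between XGFPintermediate and XGFPlow cells, short of 2-fold. On lane 2 alone, *E2f6* stood at 23.9 CPM in XGFPhigh cells, below constitutive cells (log2 ratio −0.89), and at 15.2 CPM in both XGFPintermediate and XGFPlow cells (log2 ratio 0.0023). On lane 3 alone the latter ratio was −0.65, and XGFPhigh cells stood at 48.7 CPM.

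Summed over both lanes, *Pcgf6* ranged from 91.2 CPM in constitutive to 102.7 in XGFPhigh cells, *Max* from 19.7 in XGFPintermediate to 23.1 in XGFPhigh cells and *L3mbtl2* from 36.02 in XGFPintermediate to 54.9 in XGFPhigh cells. *Mga* was highest in constitutive cells (111.3 CPM, 107.4 to 115.3), at 91.2 in XGFPintermediate and at 72.1 and 72.2 in XGFPhigh and XGFPlow cells. On lane 2 alone the populations lay further apart. There *L3mbtl2* stood at 48.5 CPM in constitutive, 17.9 in XGFPhigh, 15.5 in XGFPintermediate and 32.3 in XGFPlow cells, and *Max* at 20.4, 13.2, 6.63 and 16.8 in the same order. *Mga* stood at 43.6 in XGFPhigh cells on that lane. On the scale of single cells the quartiles overlapped for each of the 7 genes. Thinned to 100000 reads, a *Max* read was expected in 72.9% of constitutive, 72.7% of XGFPhigh, 57.5% of XGFPintermediate and 61.5% of XGFPlow cells.

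**Figure D4:**
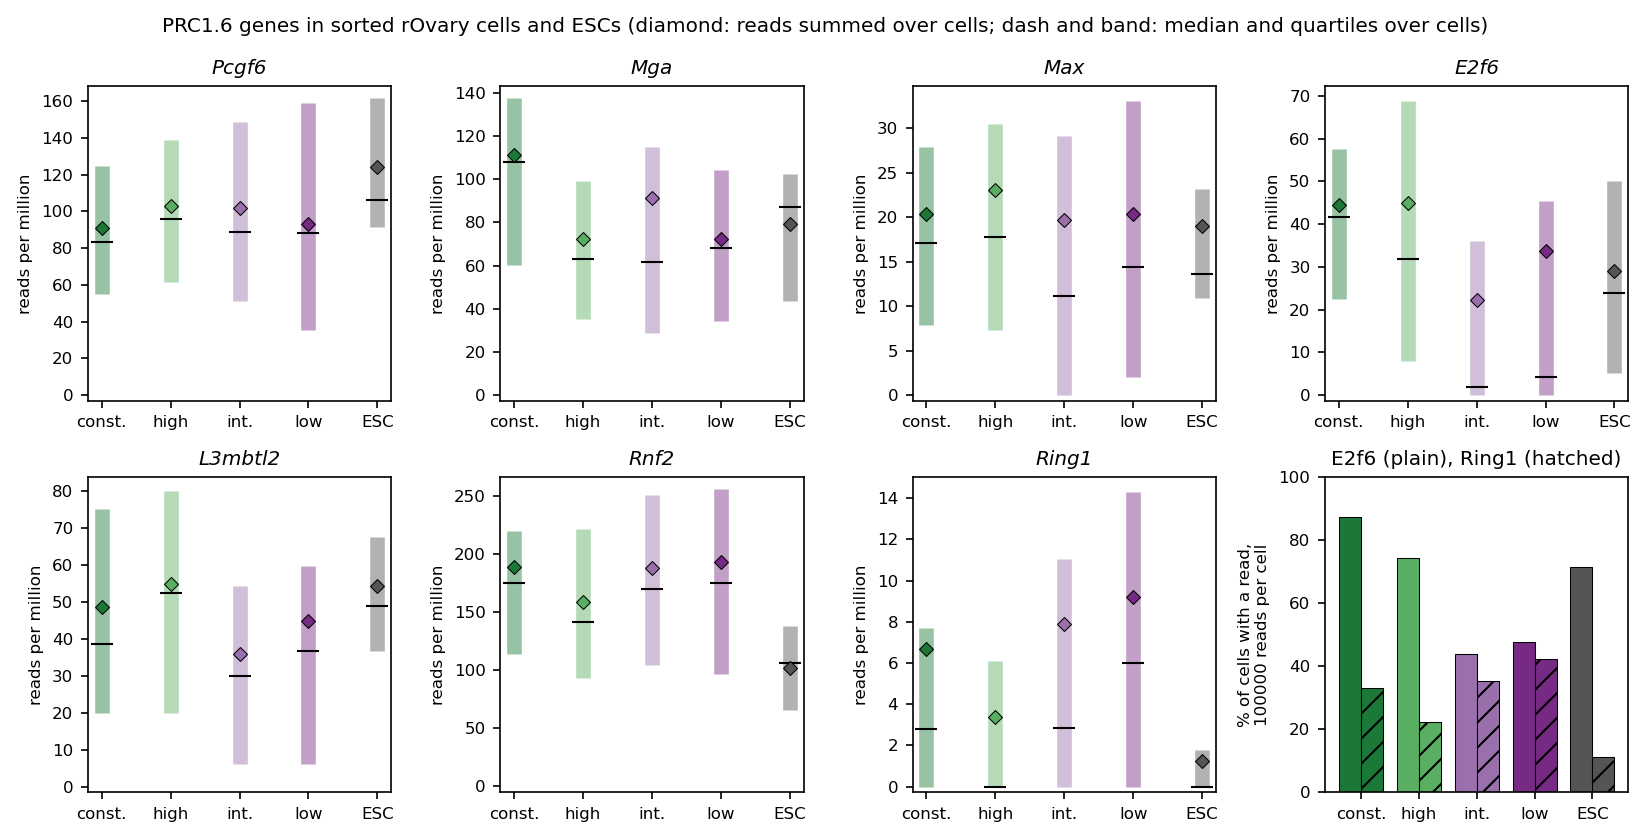
CPM of the 7 genes in sorted rOvary cells (constitutive, XGFPhigh, XGFPintermediate and XGFPlow) and in ESCs, as the level summed over cells (diamond) and the median and quartiles over cells (dash and band). The last panel gives the percent of cells with an *E2f6* or *Ring1* read after thinning to 100000 reads. The median *E2f6* level is 31.9 in XGFPhigh but 1.965 in XGFPintermediate cells, and *Ring1* is at 3.36 summed over XGFPhigh and 9.19 over XGFPlow cells.

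The target genes were arranged otherwise in these cells. Of 21 listed, 9 were past 2-fold lower and 1 higher in XGFPhigh than in XGFPlow cells (median log2 ratio −0.94, beside −0.19 over all genes). The higher one was *Taf7l*, which is X-linked as is the sorted reporter and was named after its values were seen. Over all genes 22.7% were past 2-fold in this pair in either direction, a share not split by direction. Of the same 21, 6 were past 2-fold higher and none lower in XGFPintermediate than in XGFPlow cells (median 0.72, beside −0.02). In that pair 10.3% of all genes were past 2-fold in either direction. *Sycp3* stood at 474 CPM in XGFPintermediate, 215 in XGFPhigh, 136.1 in XGFPlow and 18.1 in constitutive cells, and *Ddx4* at 380.3, 110.8, 230.4 and 48.7 in the same order. The sum of 5 meiotic markers was 3999 CPM in XGFPintermediate and 3471 in XGFPlow cells against 1297 in XGFPhigh and 1266 in constitutive cells. Most of each sum was *Stra8*, 1 of these markers, at 3198, 3150, 954 and 1158 CPM in that order. XGFPintermediate and XGFPlow cells, with more *Stra8* RNA, were also those with fewer *E2f6* positive cells, whereas *Sycp3* was lower in XGFPlow than in XGFPhigh cells. The part of cell stage in this was not tested. Within populations, Spearman's rho between a member and *Dazl*, *Ddx4* or *Sycp3* did not exceed 0.413 in size (76 or more cells each, which share depth within a cell). The value farthest from 0 was that of *E2f6* and *Sycp3* in XGFPlow cells (−0.41, 91 cells), with −0.29 in XGFPhigh, −0.28 in XGFPintermediate and −0.08 in constitutive cells.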

How the data were processed

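Bulk total RNA (stranded) of 16 libraries and SMART-seq RNA of 552 wells (518 rOvary cells, 24 ESCs, 10 empty wells) were analysed. The deposited bulk table holds a normalized signal made by the authors: reads aligned with STAR to mm10, counted with HTSeq 0.6.1 and divided by a DESeq2 size factor per library (tools per the labels). Dividing by the step of each library gave back whole reads, within 0.01 read for 100% of values. For single cells the authors deposited raw counts of reads per gene. Deposited allelic fractions were not used. Groups came from the labels.

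Bulk groups were compared with limma 3.58.1 (limma-trend, all 16 libraries, log2 of normalized count plus 1, mean above 10, Benjamini-Hochberg FDR below 0.001, two-sided), tested on simulated data. Depth was 29778299 to 46533858 reads per bulk library and 118327 to 1211978 reads per rOvary cell used, and intervals cover counting error only. Alternatives were pseudocounts of 0.5 and 10, means above 1 and 100, only the groups compared, quantile normalization, edgeR 4.0.16 (quasi-likelihood, TMM), DESeq2 1.42.0, an absolute log2 fold change above 1, a replicate block, and leaving out each library. For cells they were no *Dazl* limit, single lanes, mean CPM over cells and at least 6000 genes. Lane 3 alone and the alternatives for gene lists were chosen after seeing the data. Same-numbered XGFP− and XGFP+ PGCLC libraries deviated together across genes (r = 0.253, 0.135, 0.20 and 0.307), which pairs them. In the other pairs of groups r lay between −0.0105 and 0.160, and in none of them above 0.1 for every number. Genes named were the 7 members, 8 further subunits, and from each other list the 2 largest called rises and falls per comparison with a mean above 50, of which a part is given, with *Ddx4* and *Sycp3*, used for rank relations. The 3 most similar genes per member were taken by Pearson's r. Some genes that these rules name are not reported here. Members and lists were chosen with earlier results of these data known. Positions and exon lengths are those of GENCODE vM21 (mm10). Single-well sorting was relied on and no doublet caller was run.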

Additional observations from a re-analysis of the deposited data

Results flagged for a closer look

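*Rnf2* in XGFP− PGCLCs held 1 library far from the others: replicate 4 stood at 6020.3 normalized counts, and its gap to the next library was 0.873 of the range of the group, above Dixon's limit for 4 samples. It was the only such case in 28 sets of 4 libraries, and chance gives about 1 in 20.

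The changes from EpiLCs differed between XGFP− and XGFP+ PGCLCs by the direct test of the PGCLC groups (limma, adjusted over all genes) in 4 members. The difference was 0.85 on the log2 scale for *Ring1*, 0.33 for *E2f6*, 0.26 for *Max* and −0.61 for *L3mbtl2*. The libraries of the PGCLC groups did not overlap for these called genes, and the share of all genes without overlap was not counted. Over all genes tested, 11.3% were called higher and 12.5% lower in XGFP− PGCLCs. The *Max* call was lost without any 1 of XGFP+ replicates 1, 2 and 4 or XGFP− replicates 1 to 4. The *E2f6* call was lost without XGFP+ replicate 2, XGFP+ replicate 4 or XGFP− replicate 2.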

How the results depend on the processing

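Of the log2 fold changes of the 7 genes under the alternatives, 1008 of 1050 kept their direction and their side of the FDR limit, and of the counts of members called 147 of 156 stayed within 1.5 times. Of the counts called in the other gene lists, 596 of 624 did so. Of the single-cell log2 ratios of the 7 genes, 45 of 98 moved beyond their counting interval, and on lane 2 alone the ratio of XGFPhigh to XGFPlow cells went from 0.29 to −0.86 for *L3mbtl2* and from 0.18 to −0.35 for *Max*. With an absolute log2 fold change above 1, members called were 0 from ESCs to EpiLCs, 2 from EpiLCs to XGFP− PGCLCs, 1 from EpiLCs to XGFP+ PGCLCs, 0 between the PGCLC groups, 1 between XGFP+ PGCLCs and ESCs and 2 between XGFP− PGCLCs and ESCs. Leaving out 1 library at a time gave 2 to 3 members called between EpiLCs and ESCs, 2 to 4 between the PGCLC groups and 3 to 4 between XGFP− PGCLCs and ESCs. In bulk, the directions that turned were of differences that had not passed the test, most of them near 0 but not that of *Mga* between XGFP− PGCLCs and ESCs (−0.22, FDR = 0.00428). Under quantile normalization these were *Rnf2* (0.0054) and *Pcgf6* (0.022) between EpiLCs and ESCs, *L3mbtl2* (0.0123) between XGFP+ PGCLCs and EpiLCs, *Mga* (0.026) between the PGCLC groups and *Mga* (0.0027) between XGFP− PGCLCs and ESCs, and under edgeR *L3mbtl2* (0.0025) between XGFP+ PGCLCs and EpiLCs. Without 1 library they ranged from −0.10 to 0.0298 for *Rnf2* and from −0.0669 to 0.0134 for *Pcgf6* between EpiLCs and ESCs, from −0.10 to 0.0463 for *L3mbtl2* between XGFP+ PGCLCs and EpiLCs, and between the PGCLC groups from −0.0825 to 0.0101 for *Mga*, from −0.022 to 0.12 for *Rnf2* and from −0.0374 to 0.0037 for *Pcgf6*. The cause was not tested.

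With a replicate block, *Rnf2* passed the limit between XGFP− PGCLCs and EpiLCs (0.33, FDR = 3.36e-05) and between XGFP+ PGCLCs and EpiLCs (0.28, 0.000169). It also passed between XGFP+ PGCLCs and ESCs (0.25, 0.00067) and between XGFP− PGCLCs and ESCs (0.29, 0.000115). In these comparisons r of same-numbered libraries lay between −0.0105 and 0.160, so whether the numbers pair the samples is not settled. The block changed no other call of a member, the paired PGCLC groups included. In single cells, lane 2 alone put 3 members past 2-fold between XGFPintermediate and XGFPlow cells and 3 between XGFPhigh and constitutive cells. Without the *Dazl* limit 1 was past it in the latter pair. The shares of all genes past 2-fold under these settings were not counted. Depth limits *Ring1* most, with no read in many cells. The number of libraries limits the bulk tests.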
